A study of Mus musculus with 10 samples.

Results

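The 40 genes described here are immediate early genes and genes induced by T cell receptor (TCR) signalling, read as the rows of their symbols in the feature lists of 5 single-cell RNA libraries of T cells from mouse colorectal carcinoma. All 40 symbols were found, each as 1 row among 31053 features. The genes fall into 8 blocks by role: AP-1 (7 genes), EGR and NR4A (6), IER (3), DUSP (5), mRNA decay and BTG (5), NF-kB feedback (6), activation transcription factors (5), and surface and RGS genes (3). The groups were colorectal carcinoma under S. chamaejasme plus anti-PD-1 therapy (the combination, 2 libraries), under S. chamaejasme alone (1 library) and untreated (2 libraries), and each RNA library had a matched TCR library. S. chamaejasme is the plant Stellera chamaejasme, and anti-PD-1 blocks an inhibitory receptor of activated T cells. All groups share the tumour type, and the series is about tumour-infiltrating T lymphocytes. The sources used here give neither mouse strain, age, tumour line, dose and time of treatment nor the way tumours were dissociated. There was no group on anti-PD-1 by itself, so a difference between the combination and untreated tumours cannot be assigned to either agent.

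Immediate early genes are transcribed within minutes of a signal without new protein synthesis. In T cells, TCR engagement activates MAP kinases, calcium and NFAT, and NF-kB, which switch on the AP-1, EGR and NR4A transcription factors. The same signals induce their own brakes: DUSP phosphatases inactivate MAP kinases, NF-kB induces its inhibitors, and ZFP36 proteins destabilise the mRNAs of cytokines and early genes. Several of these genes are also known to be induced by stress and by the enzymatic dissociation of tissue.

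The RNA files held 22590 cell barcodes with 97967927 unique molecular identifiers (UMIs, each standing for 1 captured mRNA molecule), between 8763821 and 27759543 per library. The combination libraries were the deepest, with a median of 4905.5 and 4830.5 UMIs per cell after filtering. The S. chamaejasme library had 3403.5 and the untreated libraries 3522 and 3915. The part of this depth in the results was not tested. After filtering, 20239 cells were clustered with the 40 genes left out of the genes that defined the clusters, and cells were summed per library within 3 classes. Clusters 5 and 7 formed the CD8 T-like class (461 to 776 cells per library) and carried 1106 and 1689 CPM (UMI counts scaled to the usual common library total) of Cd8a and Cd8b1 summed. Clusters 0, 1, 2, 3, 4 and 8 formed the CD4 conventional T-like class (1511 to 3249 cells). Cluster 8 had none of the CD4 conventional markers raised and none among its leading genes, so its place there rests on markers that were detected without being raised and on Cd4, at 84.1 CPM against 18.6 CPM of Cd8a and Cd8b1 summed. Clusters 6 and 9, with 291 and 98.3 CPM of Foxp3, formed the Treg-like class (178 to 705 cells). Levels below are CPM of a class sum, scaled between libraries by the TMM method, and differences are log2 ratios with a standard error (SE). A gene is said to have risen or fallen where edgeR's quasi-likelihood test, fitted on all genes, gave a Benjamini-Hochberg adjusted p under 0.05. The labels name neither the animals behind the libraries nor any batch, and the untreated titles are styled differently, so p-values measure the spread between these libraries, and treatment cannot be told apart from any batch it coincides with. The mixture of clusters differed between groups: cluster 7, with granzyme genes, held 175 of 653 and 231 of 745 CD8 T-like cells in the combination libraries, 547 of 776 in the S. chamaejasme library and 273 of 461 and 198 of 528 in the untreated libraries. Cluster 8, led by Plaur, AY036118 and Lars2, held 40 of 3249 and 26 of 2891 CD4 conventional T-like cells in the combination libraries, 15 of 2870 in the S. chamaejasme library and 333 of 1511 and 873 of 2312 in the untreated libraries.

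In CD8 T-like cells, the combination libraries held more Fos and less of 10 other genes than the untreated libraries: Fosb, Atf3, Nr4a1, Nr4a3, Ier3, Nfkbia, Nfkbid, Nfkbiz, Nfkb1 and Rel. In CD4 conventional T-like cells Fos rose and 7 genes fell (Atf3, Nr4a3, Nfkbia, Nfkbid, Nfkb1, Rel and Irf4), and in Treg-like cells Fos rose and no gene fell. Thus 11 of 39 tested genes passed in CD8 T-like cells, beside 5.36% of 9619 genes (1.66% higher, 3.7% lower), 8 of 40 in CD4 conventional T-like cells, beside 6.48% of 11344 genes (2.4% higher, 4.08% lower), and 1 of 39 in Treg-like cells, beside 0.543% of 9207 genes (0.13% higher, 0.413% lower). Egr3 had too few counts to be tested in CD8 T-like and Treg-like cells. The median log2 difference of the tested genes was -0.33 in CD8 T-like, -0.22 in CD4 conventional T-like and -0.01 in Treg-like cells, where the median of all genes tested was within 0.01 of 0 in each class. At an unadjusted p under 0.05, 20 genes differed in CD8 T-like cells (1 higher, 19 lower) and 10 in Treg-like cells (6 higher, 4 lower). The share of all genes at an unadjusted p under 0.05 is not given, here or below. Counts at that threshold therefore describe the listed genes alone. The counts depended on single libraries. The CD8 T-like count was 5 without combination replicate 1, 7 without combination replicate 2, 19 without untreated replicate 1 and 24 without untreated replicate 2. The CD4 conventional T-like count was 5 without combination replicate 2 and 24 without either untreated library, and in Treg-like cells 0 without combination replicate 1 (5 at an unadjusted p under 0.05) and 5 without untreated replicate 1. Where such a fit leaves a group with 1 library, that library is assumed to vary like the others. The share of all genes called is not given for fits without a library, here or below. Such counts therefore do not show a change particular to the 40 genes.

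**Figure D1:**
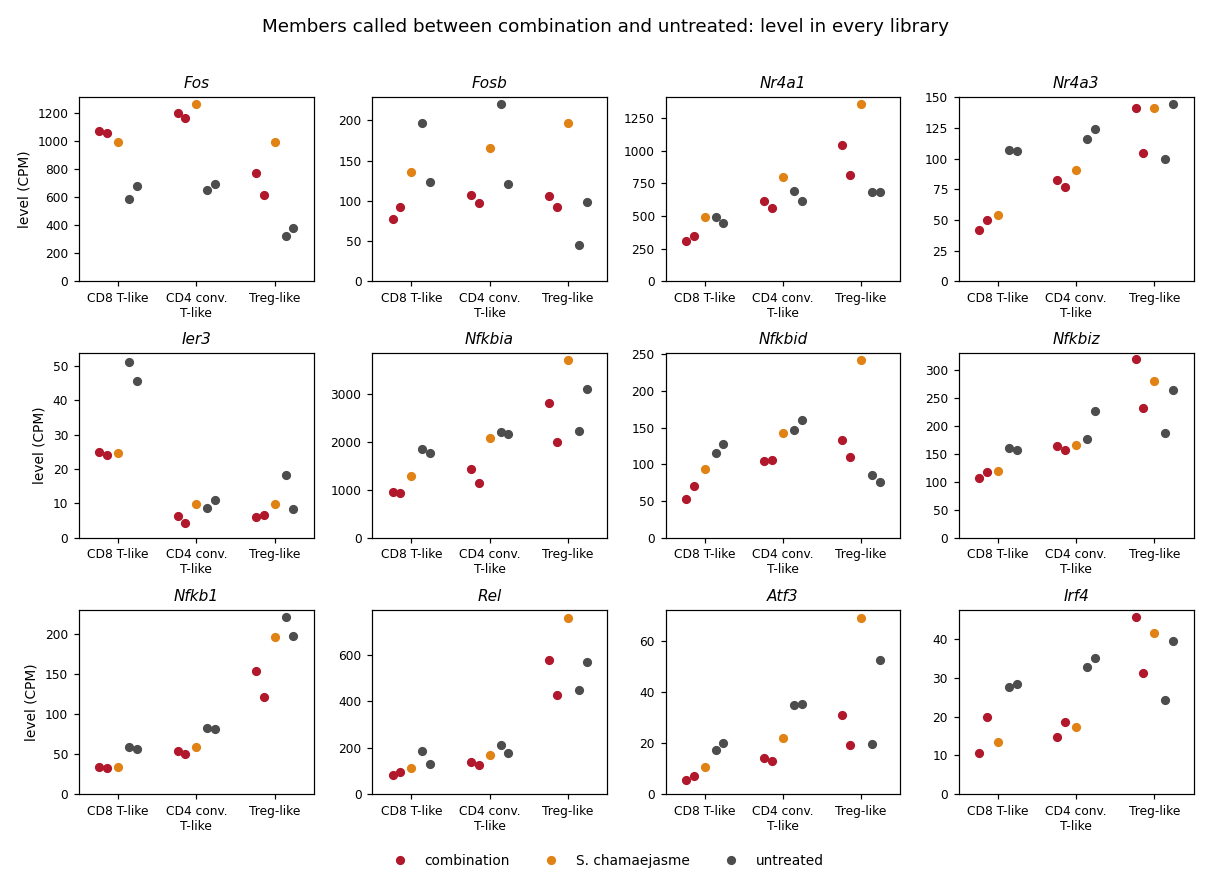
Level of the 12 genes that passed the test between combination and untreated libraries in at least 1 class, in CPM on the vertical axis, for each library (points) and class: red combination, orange S. chamaejasme, grey untreated. Fos points of the combination libraries lie above both untreated points in all 3 classes, while Nfkbia points of the combination libraries lie below the untreated points in the CD8 T-like class (949.9 and 928 CPM, against 1848 and 1769.8 CPM).

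AP-1 proteins are dimers of FOS, JUN and ATF family members that bind DNA together with NFAT at many activation genes. Fos, the founding member of the FOS family, had 1066 and 1053 CPM in the combination libraries, 993 CPM in the S. chamaejasme library and 585 and 680.2 CPM in the untreated libraries in CD8 T-like cells. Its level in CD4 conventional T-like cells was 1197 and 1161 CPM in the combination libraries, 1264 CPM in the S. chamaejasme library and 649 and 696 CPM in the untreated libraries. In Treg-like cells it was 773 and 614 CPM in the combination libraries, 988 CPM in the S. chamaejasme library and 323 and 381 CPM in the untreated libraries. In each class both combination libraries and the S. chamaejasme library were above both untreated libraries. The difference between combination and untreated libraries was 0.74 ± 0.13 (adjusted p = 0.00703) in CD8 T-like, 0.81 ± 0.10 (adjusted p = 0.0111) in CD4 conventional T-like and 0.97 ± 0.16 (adjusted p = 0.0214) in Treg-like cells. The CD8 T-like value was 0.74 (adjusted p = 0.119) without combination replicate 1 and 0.76 (adjusted p = 0.11) without combination replicate 2, and in Treg-like cells 0.80 (adjusted p = 0.092) without combination replicate 1.

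Other AP-1 genes went the other way or did not pass the test. Fosb, a FOS paralog, had 78.0 and 92.1 CPM in the combination libraries, 136 CPM in the S. chamaejasme library and 197 and 123 CPM in the untreated libraries in CD8 T-like cells, with no overlap between combination and untreated libraries. It fell by 0.91 on the log2 scale (SE 0.18, adjusted p = 0.0138), a call that was lost in cluster 5 alone. The CD4 conventional T-like sums held Fosb at 108 and 96.8 CPM in the combination libraries, against 220.1 and 121 CPM in the untreated libraries, a difference of -0.73 ± 0.24 (adjusted p = 0.103). Atf3, a stress-induced AP-1 partner that is mostly a repressor, had 5.55 and 6.91 CPM in the combination libraries, 10.46 CPM in the S. chamaejasme library and 17.1 and 20.005 CPM in the untreated libraries in CD8 T-like cells. Its CD4 conventional T-like level was 13.95 and 13.0 CPM in the combination libraries, 21.9 CPM in the S. chamaejasme library and 34.9 and 35.3 CPM in the untreated libraries. Both classes separated the combination from the untreated libraries, with differences of -1.57 ± 0.27 (adjusted p = 0.00506) and -1.38 ± 0.12 (adjusted p = 0.00512). The CD8 value of Atf3 was -0.53 (adjusted p = 0.739) in cluster 5 alone and -0.86 (adjusted p = 0.526) among cells with a TCR seen in 1 cell, and DESeq2 gave it no adjusted p. In Treg-like cells the Atf3 levels overlapped, with 31.0 and 19.3 CPM in the combination libraries, against 19.7 and 52.7 CPM in the untreated libraries. The differences of Fosl2, Jun, Junb and Jund, the remaining AP-1 genes, lay between -0.51 (Fosl2, CD8 T-like) and 0.46 (Jun, Treg-like), and none passed in any class.

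The NR4A genes encode orphan nuclear receptors that are induced by TCR signals and are known to restrain effector function and to mark exhausted T cells, and the EGR genes encode zinc finger factors induced through MAP kinases. Nr4a3 had 41.6 and 49.9 CPM in the combination libraries, 54.4 CPM in the S. chamaejasme library and 107 and 106 CPM in the untreated libraries in CD8 T-like cells, where both untreated libraries were above all treated ones. Its level in CD4 conventional T-like cells was 82.8 and 77.2 CPM in the combination libraries, 91.1 CPM in the S. chamaejasme library and 116 and 124 CPM in the untreated libraries, again without overlap between combination and untreated libraries. Nr4a3 fell in both classes, with differences of -1.21 ± 0.14 (adjusted p = 0.000353) in CD8 T-like and -0.59 ± 0.10 (adjusted p = 0.0189) in CD4 conventional T-like cells. The CD4 value was -0.64 (adjusted p = 0.062) without combination replicate 1 and -0.53 (adjusted p = 0.138) without combination replicate 2. In Treg-like cells its levels overlapped, with 142 and 105 CPM in the combination libraries, against 100.02 and 145 CPM in the untreated libraries and a difference of -0.03 ± 0.20 (adjusted p = 0.952).

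Nr4a1, a reporter gene of TCR signal strength, had 309 and 345 CPM in the combination libraries, 493 CPM in the S. chamaejasme library and 492 and 449 CPM in the untreated libraries in CD8 T-like cells. The level in CD4 conventional T-like cells was 614.3 and 562 CPM in the combination libraries, 796 CPM in the S. chamaejasme library and 688 and 613.9 CPM in the untreated libraries. In Treg-like cells it was 1040.3 and 814 CPM in the combination libraries, 1357 CPM in the S. chamaejasme library and 680.4 and 686 CPM in the untreated libraries. The combination libraries thus lay below the untreated ones in the CD8 class, overlapped them barely in the CD4 class and lay above them in the Treg class. The differences were -0.52 ± 0.13 (adjusted p = 0.0346), -0.15 ± 0.11 (adjusted p = 0.411) and 0.44 ± 0.15 (adjusted p = 0.166). The fall in CD8 T-like cells did not pass with DESeq2 (-0.52, adjusted p = 0.0618), in cluster 5 alone (-0.48, adjusted p = 0.0593), among cells with a TCR seen in 1 cell (-0.29, adjusted p = 0.329), without combination replicate 1 (-0.45, adjusted p = 0.532) or without combination replicate 2 (-0.60, adjusted p = 0.269). Nr4a2, the third member of the family, differed by -0.54 ± 0.15 (adjusted p = 0.0539) in CD8 T-like cells and by -0.12 and -0.02 in the CD4 and Treg classes. None of Egr1, Egr2 and Egr3 passed in any class. Their tested differences ranged over -0.43 (Egr1, Treg-like) to 0.85 (Egr2, Treg-like).

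The promoters of Fos and Nr4a3 are shown because Fos was the gene that rose in all 3 classes while Nr4a3 fell in CD8 and CD4 T-like cells, and both are textbook targets of CREB and ATF factors. Each run covers 250 bases before to 50 after the RefSeq gene start (RefSeq, GRCm38.p6), and capitals mark TGACG, the core of the CRE and ATF element, on either strand. The entry shown is the first of the gene that holds a match, so the presence of a match was fixed by this choice.
Fos promoter, chr12:85473640-85473939, plus strand: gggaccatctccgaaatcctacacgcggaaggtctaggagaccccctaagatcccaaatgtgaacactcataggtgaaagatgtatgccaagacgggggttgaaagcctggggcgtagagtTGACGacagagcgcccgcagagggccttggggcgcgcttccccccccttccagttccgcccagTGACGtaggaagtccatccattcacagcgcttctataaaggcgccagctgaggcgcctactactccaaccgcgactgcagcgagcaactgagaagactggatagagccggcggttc
Nr4a3 promoter, chr4:48045055-48045354, plus strand: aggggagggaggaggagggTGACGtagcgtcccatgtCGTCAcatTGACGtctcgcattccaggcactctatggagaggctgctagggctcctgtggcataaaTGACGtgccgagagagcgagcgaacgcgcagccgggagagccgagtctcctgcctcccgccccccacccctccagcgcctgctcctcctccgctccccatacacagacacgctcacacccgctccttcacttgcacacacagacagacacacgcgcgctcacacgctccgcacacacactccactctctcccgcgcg
The Fos window holds 2 matches and the Nr4a3 window 4. TGACG was found in any promoter entry of 17 of the 28 genes with a RefSeq entry, and in 20.8% of 32851 single promoter entries of this length. The first value counts genes and the second counts entries, so they cannot be compared directly. A match is a description of the letters and not a measured binding site.

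The NF-kB feedback block held the most genes that fell. These were 5 of 6 in CD8 T-like, 4 of 6 in CD4 conventional T-like and 0 of 6 in Treg-like cells. Of all genes tested, 3.7%, 4.08% and 0.413% fell in that order, and the block medians were -0.82, -0.56 and -0.08. In cluster 5 alone the CD8 calls of Nfkbiz, Nfkb1 and Rel were lost, and in cluster 0 alone all CD4 calls of the block. Of the block, only Nfkbid passed the test, given below, of whether the change differed between classes. In the Treg-like class edgeR gave 2 of the 6 genes an unadjusted p under 0.05, and DESeq2 called 1 of all 40 genes. Nfkb1 and Rel encode NF-kB subunits, Nfkbia (IkB alpha) holds NF-kB in the cytoplasm, Nfkbid and Nfkbiz are atypical nuclear IkB proteins that modulate its targets, and Tnfaip3 (A20) is a ubiquitin-editing brake upstream. Nfkbia had 949.9 and 928 CPM in the combination libraries, 1284 CPM in the S. chamaejasme library and 1848 and 1769.8 CPM in the untreated libraries in CD8 T-like cells. CD4 conventional T-like cells held 1443 and 1135 CPM in the combination libraries, 2076 CPM in the S. chamaejasme library and 2199 and 2159 CPM in the untreated libraries. The combination libraries lay below the untreated ones in both classes, with differences of -0.95 ± 0.13 (adjusted p = 0.00122) and -0.76 ± 0.13 (adjusted p = 0.0225). Without combination replicate 2 these were -0.92 (adjusted p = 0.0769) and -0.59 (adjusted p = 0.188). In Treg-like cells the Nfkbia level was 2825 and 2001 CPM in the combination libraries, against 2226 and 3098 CPM in the untreated libraries, and the groups overlapped.

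Nfkbid had 52.5 and 70.7 CPM in the combination libraries, 93.2 CPM in the S. chamaejasme library and 115 and 127 CPM in the untreated libraries in CD8 T-like cells. For CD4 conventional T-like cells its level was 104 and 105 CPM in the combination libraries, 142 CPM in the S. chamaejasme library and 147 and 161 CPM in the untreated libraries. In Treg-like cells it was 132 and 109.97 CPM in the combination libraries, 241 CPM in the S. chamaejasme library and 84.9 and 75.5 CPM in the untreated libraries. The combination libraries were below the untreated libraries in the CD8 and CD4 classes and above them in the Treg class. The differences were -0.97 ± 0.15 (adjusted p = 0.00337), -0.56 ± 0.10 (adjusted p = 0.0215) and 0.61 ± 0.18 (adjusted p = 0.119). Without combination replicate 1 the values were -0.77 (adjusted p = 0.054) in CD8 T-like and -0.55 (adjusted p = 0.14) in CD4 conventional T-like cells, and without combination replicate 2 the CD4 value was -0.56 (adjusted p = 0.109).

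Nfkb1 had 33.1 and 32.9 CPM in the combination libraries, 34.1 CPM in the S. chamaejasme library and 58.3 and 56.6 CPM in the untreated libraries in CD8 T-like cells. Its CD4 conventional T-like level was 53.3 and 50.4 CPM in the combination libraries, 58.4 CPM in the S. chamaejasme library and 82.5 and 81.6 CPM in the untreated libraries. In Treg-like cells it had 154 and 122 CPM in the combination libraries, 197 CPM in the S. chamaejasme library and 221 and 198 CPM in the untreated libraries. Both combination libraries were below both untreated libraries in all 3 classes. The fall passed in the CD8 (-0.80 ± 0.15, adjusted p = 0.00749) and CD4 classes (-0.66 ± 0.09, adjusted p = 0.0151) and not in the Treg class (-0.60 ± 0.17, adjusted p = 0.112). The CD8 value did not pass with DESeq2 (-0.79, adjusted p = 0.148), in cluster 5 alone (-0.20, adjusted p = 0.693), among cells with a TCR seen in 1 cell (-0.29, adjusted p = 0.516), without combination replicate 1 (-0.80, adjusted p = 0.0635) or replicate 2 (-0.79, adjusted p = 0.0619), nor the CD4 value without combination replicate 2 (-0.62, adjusted p = 0.0547).

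Rel stood at 82.8 and 93.2 CPM in the combination libraries, 113 CPM in the S. chamaejasme library and 186 and 129.8 CPM in the untreated libraries in CD8 T-like cells, and at 139 and 125 CPM in the combination libraries, 169 CPM in the S. chamaejasme library and 212 and 176 CPM in the untreated libraries in CD4 conventional T-like cells. Neither class showed overlap between combination and untreated libraries, and the differences were -0.84 ± 0.16 (adjusted p = 0.00993) and -0.55 ± 0.12 (adjusted p = 0.0407). The calls were lost without combination replicate 1 at -0.75 in the CD8 class, adjusted p = 0.0606, and -0.64 in the CD4 class, adjusted p = 0.0731. In CD4 cells the call was also lost without combination replicate 2 (-0.47, adjusted p = 0.23). The CD8 call was also lost in cluster 5 alone and among cells with a TCR seen in 1 cell (-0.65, adjusted p = 0.0524). In Treg-like cells Rel overlapped, at 576 and 425 CPM in the combination libraries, against 450.1 and 568 CPM in the untreated libraries. Nfkbiz fell in CD8 T-like cells, with 107 and 117 CPM in the combination libraries, 119.5 CPM in the S. chamaejasme library and 161 and 156 CPM in the untreated libraries. Its groups did not overlap there, and the difference was -0.50 ± 0.12 (adjusted p = 0.0346). It was -0.49 (adjusted p = 0.232) with DESeq2, -0.36 (adjusted p = 0.243) in cluster 5 alone, -0.44 (adjusted p = 0.128) among cells with a TCR seen in 1 cell, -0.43 (adjusted p = 0.478) without combination replicate 1 and -0.57 (adjusted p = 0.228) without combination replicate 2. Nfkbiz differed by -0.33 in CD4 conventional and 0.26 in Treg-like cells. Tnfaip3 passed in no class, with differences of -0.40 ± 0.13 (adjusted p = 0.0979), -0.43 ± 0.13 (adjusted p = 0.0785) and -0.13 ± 0.14 (adjusted p = 0.652).

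Promoters of Nfkbia, Nfkbid and Rel are shown because NF-kB is known to act back on genes of its own pathway and these genes moved together in the CD8 and CD4 classes. Windows, source and the choice of an entry with a match are as for Fos, and capitals mark matches to the NF-kB consensus on either strand.
Nfkbia promoter, chr12:55492598-55492897, minus strand: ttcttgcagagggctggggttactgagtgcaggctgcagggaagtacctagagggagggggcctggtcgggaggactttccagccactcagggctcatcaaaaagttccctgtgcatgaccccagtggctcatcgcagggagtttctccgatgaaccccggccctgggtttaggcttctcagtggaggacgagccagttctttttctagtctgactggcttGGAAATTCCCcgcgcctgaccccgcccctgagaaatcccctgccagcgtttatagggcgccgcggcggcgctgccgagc
Nfkbid promoter, chr7:30422156-30422455, plus strand: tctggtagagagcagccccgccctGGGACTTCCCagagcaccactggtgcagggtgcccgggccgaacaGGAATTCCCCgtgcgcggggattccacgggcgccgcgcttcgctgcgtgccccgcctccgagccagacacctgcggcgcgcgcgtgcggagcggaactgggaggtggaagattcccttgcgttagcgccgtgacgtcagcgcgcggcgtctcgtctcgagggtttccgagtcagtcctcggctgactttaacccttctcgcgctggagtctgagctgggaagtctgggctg
Rel promoter, chr11:23770920-23771219, minus strand: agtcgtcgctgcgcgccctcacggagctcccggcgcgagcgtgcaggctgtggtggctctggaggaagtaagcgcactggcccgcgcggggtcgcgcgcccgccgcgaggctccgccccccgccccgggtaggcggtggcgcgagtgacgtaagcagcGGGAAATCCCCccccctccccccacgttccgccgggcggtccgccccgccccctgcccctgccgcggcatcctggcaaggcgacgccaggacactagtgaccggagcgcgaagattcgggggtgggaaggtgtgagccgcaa
The Nfkbia window holds 1 match, the Nfkbid window 2 and the Rel window 2 that overlap. The consensus was found in any promoter entry of 9 of the 28 genes with an entry, and in 4.51% of 32851 single promoter entries of this length. Here too the first value counts genes and the second counts entries. The 9 genes include Fos, which rose between combination and untreated libraries, and Fosl2 and Tnfaip3, which passed in no class. The others were Nfkbia, Nfkbid, Rel, Fosb, Ier3 and Nr4a1, which fell in at least 1 class. Nfkbid and Rel also hold TGACG, which is not marked in their windows. Again a match describes letters only.

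Ier3, which encodes a short-lived regulator of survival under NF-kB and ERK signals, had 24.99 and 24.2 CPM in the combination libraries, 24.5 CPM in the S. chamaejasme library and 51.3 and 45.5 CPM in the untreated libraries in CD8 T-like cells. All treated libraries were below both untreated ones, and the difference was -0.97 ± 0.16 (adjusted p = 0.00419). It did not pass with DESeq2 (-0.97, adjusted p = 0.0817) or among cells with a TCR seen in 1 cell (-0.71, adjusted p = 0.157). Ier3 was low in CD4 conventional T-like cells, with 6.33 and 4.10 CPM in the combination libraries, against 8.68 and 10.8 CPM in the untreated libraries, and its difference was -0.91 ± 0.25 (adjusted p = 0.069). Irf4, a transcription factor whose level follows TCR signal strength, fell in CD4 conventional T-like cells, where it had 14.6 and 18.5 CPM in the combination libraries, 17.4 CPM in the S. chamaejasme library and 32.9 and 35.1 CPM in the untreated libraries. Both treated groups were below the untreated libraries there, and the difference was -1.04 ± 0.14 (adjusted p = 0.0151). Irf4 in CD8 T-like cells had 10.6 and 19.8 CPM in the combination libraries, against 27.6 and 28.5 CPM in the untreated libraries, without overlap, and a difference of -0.87 ± 0.26 (adjusted p = 0.0673). In Treg-like cells Irf4 overlapped, with 45.9 and 31.3 CPM in the combination libraries, against 24.2 and 39.7 CPM in the untreated libraries. Ier2 and Ier5 did not pass in any class. Among the other activation factors, Myc, which drives growth after activation, differed by -0.46, -0.42 and -0.13 in CD8, CD4 and Treg-like cells, and Klf6, Nfatc1 and Crem by -0.35 (Crem, CD8 T-like) to 0.26 (Crem, Treg-like), none of them past the test.

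No gene of the DUSP, mRNA decay and BTG, or surface and RGS blocks passed edgeR's test between combination and untreated libraries in any class, while 3, 7 and 3 of their 13 genes had an unadjusted p under 0.05 in CD8, CD4 and Treg-like cells. Dusp4, a nuclear phosphatase of ERK and JNK, differed by -0.72 ± 0.22 (adjusted p = 0.0717) in CD8 T-like and -1.11 ± 0.31 (adjusted p = 0.0751) in CD4 conventional T-like cells. Dusp1, the prototype immediate early MAP kinase phosphatase, differed by 0.32 ± 0.10 (adjusted p = 0.088) in CD4 conventional and 0.60 ± 0.13 (adjusted p = 0.0655) in Treg-like cells, with 1563 and 1292 CPM in the combination libraries, against 923 and 959 CPM in the untreated libraries in the Treg-like class. Its Treg-like levels did not overlap between these groups. The differences of Dusp2, Dusp5 and Dusp10 stayed between -0.06 (Dusp5, Treg-like) and 0.34 (Dusp2, Treg-like). Rgs1, an inhibitor of chemokine receptor signalling, differed by -0.49 ± 0.16 (adjusted p = 0.102) in CD8 T-like and -1.04 ± 0.27 (adjusted p = 0.0619) in CD4 conventional T-like cells. Its CD4 levels were 395 and 421 CPM in the combination libraries, against 1115 and 561 CPM in the untreated libraries, so the untreated libraries differed widely between themselves. Rgs2, Cd69 (an early activation antigen that retains T cells in tissue), Zfp36, Zfp36l1, Zfp36l2, Btg1 and Btg2 lay between -0.52 (Zfp36l1, CD4 conventional) and 0.36 (Zfp36, Treg-like).

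**Figure D2:**
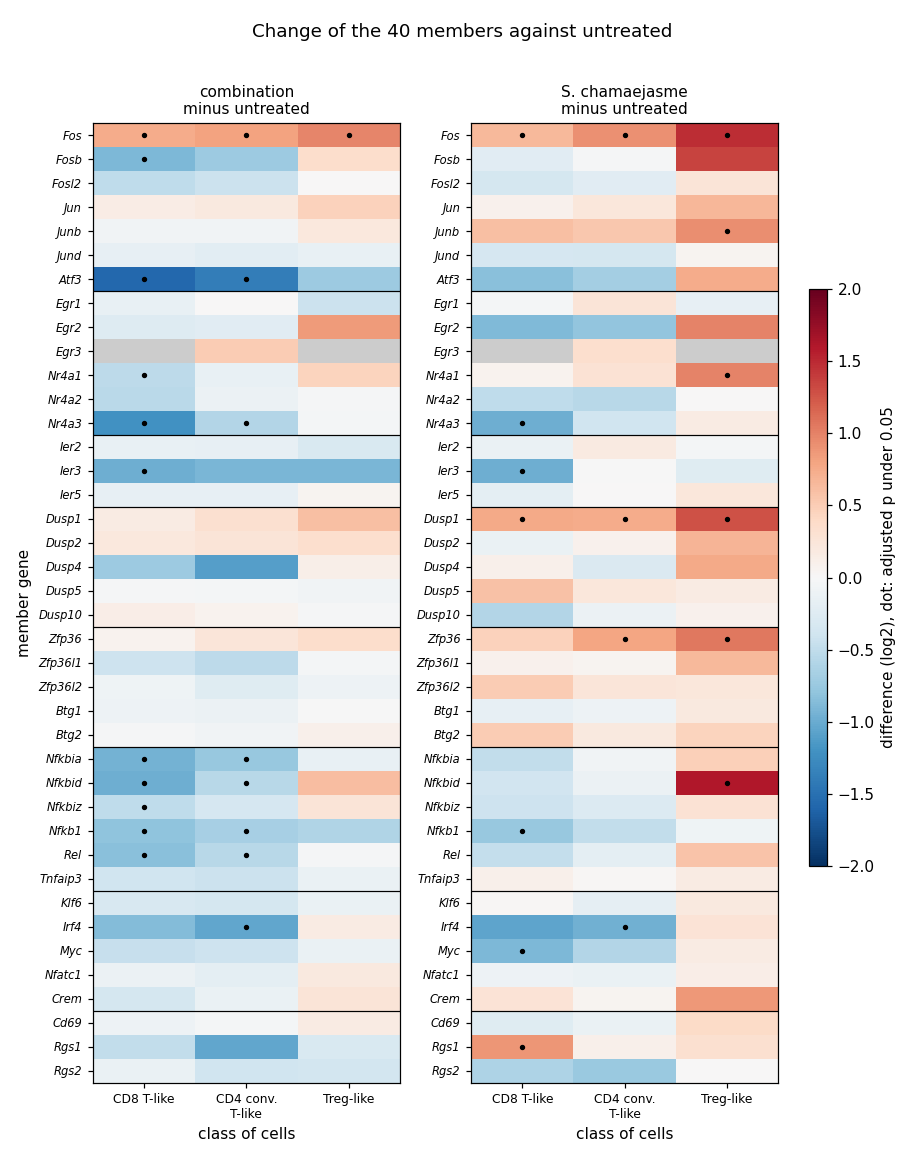
Log2 difference of each of the 40 genes (rows, grouped by block) in the combination and in the S. chamaejasme library against the untreated libraries, for the CD8 T-like, CD4 conventional T-like and Treg-like classes (columns). Colour runs over -2 to 2, grey cells were not tested and a dot marks an adjusted p under 0.05; the NF-kB feedback rows carry dots for 5 genes in CD8 T-like and 4 in CD4 conventional T-like cells of the combination.

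Other genes of the same programme were read from a list of 40 immediate early and TCR-induced genes outside the 8 blocks. Between combination and untreated libraries, 17 of 39 tested list genes fell and 0 rose in CD8 T-like cells (median -0.65), beside 3.7% of all genes lower and 1.66% higher there, 13 of 39 fell and 0 rose in CD4 conventional T-like cells (median -0.51), beside 4.08% lower and 2.4% higher, and 0 of 37 passed edgeR's test in Treg-like cells (median -0.12; 9 at an unadjusted p under 0.05). The CD8 T-like genes included Il2ra, the IL-2 receptor alpha chain (-2.51), Kdm6b, a histone H3K27 demethylase (-1.36), and Pim1, a survival kinase (-1.34). Those of CD4 conventional T-like cells included Dusp14 (-1.62), Bhlhe40 (-1.40) and the clock gene Per1 (-1.15). Against the same shares, of 26 TCR signalling proteins 4 fell and none rose in CD8 T-like cells, among them Rasgrp1 (-0.68), which activates Ras below the TCR, and Ptpn22 (-0.65), a phosphatase that dampens it. The same list had 3 genes that fell in CD4 conventional T-like cells, Malt1 (-0.73), Nfatc2 (-0.70) and Ptpn22 (-0.49), and 0 that passed in Treg-like cells (7 at an unadjusted p under 0.05). In the S. chamaejasme library the list of early genes had 1 that rose (Ifng, 1.26) and 6 that fell in CD8 T-like cells, beside 1.3% of all genes higher and 1.54% lower, and 2 that rose in Treg-like cells, Bcl3 (1.10) and Gadd45b (1.03), beside 0.272% of all genes higher.

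Heat shock and dissociation genes and RNA quality genes were read beside these results, because early genes are known to respond to handling. Of 19 tested heat shock and dissociation genes outside the 40, 3 fell and none rose in CD8 T-like cells (among them Mt1 -2.27 and Sqstm1 -0.57), 3 fell and none rose in CD4 conventional T-like cells (among them Mt1 -1.68 and Hspa1b -0.86), and 0 passed in Treg-like cells (4 at an unadjusted p under 0.05). Their summed level was 14472 and 16586 CPM in the combination libraries, 18733 CPM in the S. chamaejasme library and 17889.8 and 17509 CPM in the untreated libraries in CD8 T-like cells. The CD4 conventional T-like sums held 17036 and 18246 CPM in the combination libraries, 19308 CPM in the S. chamaejasme library and 21166 and 21897 CPM in the untreated libraries. Cluster 3, with heat shock genes among its leading genes, nevertheless made up a larger part of this class in every treated library than in the untreated ones. The RNA quality genes (mitochondrial transcripts and the rRNA-linked genes AY036118, Gm42418 and Lars2) had a lower summed level in all treated libraries, and 4 of 16 fell in the combination in each class: AY036118, Lars2, mt-Nd3 and Gm42418. Their summed level was 34004 and 33567 CPM in the combination libraries, 27392 CPM in the S. chamaejasme library and 41208 and 57873 CPM in the untreated libraries in CD8 T-like cells, and 30311 and 28869.5 CPM in the combination libraries, 30185 CPM in the S. chamaejasme library and 35375 and 48463 CPM in the untreated libraries in Treg-like cells. These levels thus moved with the groups, and their part in the results was not tested. Markers of other cell types were read in the same sums. The 6 monocyte markers summed to 457 and 363 CPM in the combination libraries, 223 CPM in the S. chamaejasme library and 252 and 248 CPM in the untreated libraries in CD8 T-like cells, nearly all of it from Ly6c2, which is also a CD8 T marker here, Plac8 and Ccr2, while Lyz2 reached at most 0.598 CPM and Fcgr1 was at 0. The 8 dendritic cell markers summed to 969 and 1077 CPM in the combination libraries, 397 CPM in the S. chamaejasme library and 418 and 852 CPM in the untreated libraries in CD8 T-like cells. In CD4 conventional T-like cells they summed to 967 and 1085 CPM in the combination libraries, 609.6 CPM in the S. chamaejasme library and 623 and 870.4 CPM in the untreated libraries. Ccr7, a homing receptor that naive and central memory T cells carry too, made up 952 and 1063 CPM of the combination sums and 408 and 833 CPM of the untreated sums in CD8 T-like cells, where Flt3, Xcr1 and Clec9a were at 0. The 6 plasma cell markers summed to 125 CPM in the Treg-like sum of the S. chamaejasme library, 87.2 CPM of it Jchain, against 18.2 and 31.2 CPM in the untreated libraries. The part of these levels in the results was not tested. Fibroblast and neutrophil markers stayed between 0 and 2.60 CPM in every class sum, and erythrocyte and platelet markers reached 636 CPM in the CD4 conventional T-like sum of the S. chamaejasme library, against at most 1.77 CPM in the other CD4 sums.

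The S. chamaejasme library was set against the same 2 untreated libraries, so this comparison shares its controls with the one above and rests on 1 treated library, assumed to vary like the others. In Treg-like cells 6 genes rose and none fell: Fos, Junb, Nr4a1, Dusp1, Zfp36 and Nfkbid, beside 0.434% of 9207 genes (0.272% higher, 0.163% lower). CD8 T-like cells had rises of Fos, Dusp1 and Rgs1, and Nr4a3, Ier3, Nfkb1 and Myc fell, beside 2.84% of 9619 genes (1.3% higher, 1.54% lower). CD4 conventional T-like cells had rises of Fos, Dusp1 and Zfp36 and a fall of Irf4, beside 1.67% of 11344 genes (0.635% higher, 1.04% lower). Fos and Dusp1 were the genes that rose in all 3 classes. The medians of the tested genes were -0.16 in CD8 T-like, -0.05 in CD4 conventional T-like and 0.28 in Treg-like cells. For the fits without a library that follow, the share of all genes called is again not given. The CD8 count of 7 became 4 without combination replicate 2, 26 without untreated replicate 1 and 21 without untreated replicate 2. Calls of 3 genes in CD8 T-like cells were lost without combination replicate 1 and without combination replicate 2, the values in that order being Fos 0.66 (adjusted p = 0.158) and 0.65 (adjusted p = 0.186), Dusp1 0.76 (adjusted p = 0.0751) and 0.76 (adjusted p = 0.0935), and Nfkb1 -0.75 (adjusted p = 0.0851) and -0.75 (adjusted p = 0.0804). The CD4 conventional T-like count of 4 became 5 without combination replicate 1, 5 without combination replicate 2, 23 without untreated replicate 1 and 19 without untreated replicate 2, and in Treg-like cells the count of 6 became 7 without combination replicate 1, 7 without combination replicate 2, 10 without untreated replicate 1 and 8 without untreated replicate 2.

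Dusp1 had 2278 CPM in the S. chamaejasme library, against 923 and 959 CPM in the untreated libraries in Treg-like cells, a difference of 1.28 ± 0.16 (adjusted p = 0.00245). It had 1274 CPM in the S. chamaejasme library, against 789 and 741 CPM in the untreated libraries in CD4 conventional T-like cells, and in CD8 T-like cells 1053 CPM in the S. chamaejasme library, against 707 and 544 CPM in the untreated libraries. The S. chamaejasme library was above both untreated libraries in every class, with differences of 0.74 ± 0.12 (adjusted p = 0.0385) in the CD4 and 0.75 ± 0.17 (adjusted p = 0.0389) in the CD8 class. For Fos the differences were 1.48 ± 0.18 (adjusted p = 0.00245) in Treg-like, 0.91 ± 0.12 (adjusted p = 0.0302) in CD4 conventional and 0.65 ± 0.16 (adjusted p = 0.0464) in CD8 T-like cells. Zfp36, which encodes tristetraprolin, a protein that marks AU-rich mRNAs for decay, had 1773 CPM in the S. chamaejasme library, against 884 and 825 CPM in the untreated libraries in Treg-like cells. The CD4 conventional T-like values of Zfp36 were 1878 CPM in the S. chamaejasme library, against 1081 and 1084 CPM in the untreated libraries. Both differences passed, at 1.06 ± 0.17 (adjusted p = 0.0177) and 0.79 ± 0.12 (adjusted p = 0.0384), and that in CD8 T-like cells did not (0.46 ± 0.16, adjusted p = 0.127).

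Nfkbid and Nr4a1, which rose in Treg-like cells of the S. chamaejasme library by 1.61 ± 0.20 (adjusted p = 0.00245) and 0.99 ± 0.17 (adjusted p = 0.0291), differed by -0.38 ± 0.19 (adjusted p = 0.284) and 0.07 ± 0.16 (adjusted p = 0.849) in CD8 T-like cells. Junb, a JUN family member, had 10008 CPM in the S. chamaejasme library, against 5089 and 5453 CPM in the untreated libraries in Treg-like cells, a rise of 0.93 ± 0.15 (adjusted p = 0.0178). Among the genes that fell in CD8 T-like cells, Nr4a3 differed by -0.97 ± 0.18 (adjusted p = 0.0181), Ier3 by -0.98 ± 0.20 (adjusted p = 0.0262), Nfkb1 by -0.75 ± 0.18 (adjusted p = 0.0464) and Myc by -0.90 ± 0.21 (adjusted p = 0.0387). Myc stood at 116 CPM in the S. chamaejasme library, against 176 and 257 CPM in the untreated libraries. Irf4 in CD4 conventional T-like cells fell, with a difference of -0.97 ± 0.18 (adjusted p = 0.0495). This call was lost with RLE size factors, without doublet removal and in cluster 0 alone. Rgs1 in CD8 T-like cells had 1496 CPM in the S. chamaejasme library, against 959 and 665 CPM in the untreated libraries, a rise of 0.88 ± 0.19 (adjusted p = 0.0302). Cluster 7, the granzyme cluster, was the larger part of CD8 T-like cells in that library, and in cluster 5 alone the Rgs1 difference was -0.13 (adjusted p = 0.829). None of the 7 CD8 T-like calls of that library passed in cluster 5 alone, where adjusted p-values ran between 0.137 (Nr4a3, -0.97) and 0.829, or among cells with a TCR seen in 1 cell, where they ran between 0.119 (Nr4a3, -1.06) and 0.837 (Nfkb1, -0.16).

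Whether the difference between combination and untreated libraries itself differed between the 3 classes was tested in 1 fit of the 15 class sums with the library as a block. This interaction passed for 2 of the tested genes, Nfkbid (adjusted p = 0.0148) and Nr4a1 (adjusted p = 0.0296), beside 0.155% of 9700 genes. The Nfkbid difference was 1.22 ± 0.20 log2 units higher in Treg-like than in CD4 conventional T-like cells, and the value for CD8 T-like minus CD4 conventional T-like cells was -0.40 ± 0.18. For Nr4a1 the corresponding values were 0.61 ± 0.14 and -0.36 ± 0.14. Both genes were thus highest in the combination relative to untreated in Treg-like cells, a class where neither gene's own difference passed. The Nr4a1 difference did not pass in CD4 conventional T-like cells either. The adjusted p of Nr4a3 was 0.0997 and that of Nfkbia 0.0997, so different CD8, CD4 and Treg results for them are not shown to differ. Neither call held without combination replicate 1 (Nfkbid adjusted p = 0.209, Nr4a1 adjusted p = 0.468, 0 genes of the 40 called, 4 at an unadjusted p under 0.05), and that of Nr4a1 did not hold without untreated replicate 1. The count was 5 without combination replicate 2, 1 without untreated replicate 1, 15 without untreated replicate 2 and 6 when cells were assigned to lineages by a gate on their genes.

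Because class sums mix clusters in different proportions, the same contrast was fitted within each cluster of the 3 classes with 30 cells in every library. Cluster 8 was not fitted, with 15 cells in the S. chamaejasme library and 26 in combination replicate 2. In cluster 7, the CD8 T-like cluster with granzymes, 3 genes rose and 7 fell between combination and untreated libraries, beside 3.89% of 8072 genes (1.45% higher, 2.44% lower). Fos rose there by 1.52 ± 0.15 (adjusted p = 3.28e-05), with Dusp1 (0.69 ± 0.16) and Zfp36l2 (0.46 ± 0.13), and Atf3 (-1.52 ± 0.39), Nfkb1 (-1.27 ± 0.23), Myc (-1.15 ± 0.20), Nfkbia (-1.06 ± 0.14), Nr4a3 (-0.89 ± 0.21), Rel (-0.83 ± 0.17) and Fosb (-0.66 ± 0.18) fell. As plain CPM of the cluster's UMIs, Fos had 1261 and 1045 CPM in the combination libraries, 1092 CPM in the S. chamaejasme library and 414 and 327 CPM in the untreated libraries in cluster 7. In cluster 5, the Cd8b1, Ly6c2 and Eomes cluster, Fos had 977 and 1043 CPM in the combination libraries, 1006 CPM in the S. chamaejasme library and 877 and 799.5 CPM in the untreated libraries. The untreated levels of Fos were thus lower in cluster 7 than in cluster 5, and the groups did not overlap in either. In cluster 5 no gene rose and 4 fell, beside 2.14% of 8442 genes (0.64% higher, 1.5% lower): Ier3 (-1.49 ± 0.24), Nr4a3 (-0.99 ± 0.19), Nfkbid (-0.76 ± 0.19) and Nfkbia (-0.66 ± 0.14).

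Within CD4 conventional T-like clusters the picture of the class sums changed. In cluster 0 (Ifngr2, Klhdc2, Igfbp4), 5 genes rose and 1 fell, beside 3.08% of 8410 genes (1.49% higher, 1.59% lower): Fos (1.57 ± 0.13), Fosb (1.27 ± 0.26), Dusp2 (1.20 ± 0.16), Dusp1 (0.99 ± 0.15) and Zfp36 (0.56 ± 0.12) rose, and Rgs1 (-0.53 ± 0.14) fell. In cluster 1 (Tox2, Tnfsf8, Il21), Fos (1.03 ± 0.11), Egr1 (0.92 ± 0.18), Jun (0.79 ± 0.13), Nr4a1 (0.71 ± 0.12) and Dusp1 (0.57 ± 0.13) rose and Nfkbia (-0.81 ± 0.15) and Rel (-0.55 ± 0.12) fell, beside 1.97% of 9235 genes (0.617% higher, 1.35% lower). In cluster 4 (Il17a, Il22), Fos (1.60 ± 0.20), Dusp1 (1.06 ± 0.20), Dusp10 (0.96 ± 0.18), Dusp5 (0.91 ± 0.16), Junb (0.72 ± 0.12) and Zfp36l2 (0.56 ± 0.12) rose and Irf4 (-1.07 ± 0.24) fell, beside 1.08% of 8058 genes (0.546% higher, 0.534% lower). Cluster 2 (Il6ra, Bcl2) had 8 genes that fell and none that rose, beside 1.76% of 8962 genes (0.435% higher, 1.33% lower), with Fosl2 (-1.36 ± 0.28), Ier3 (-1.36 ± 0.34), Nr4a3 (-1.11 ± 0.22) and Crem (-1.04 ± 0.18) past -1. In cluster 3, whose leading genes include heat shock genes and Jun, Crem (-1.01 ± 0.27) and Fosl2 (-0.90 ± 0.22) fell, beside 0.753% of 9167 genes (0.273% higher, 0.48% lower). Cluster 3 held 612 of 3249 and 617 of 2891 class cells in the combination libraries and 643 of 2870 in the S. chamaejasme library. In the untreated libraries it held 67 of 1511 and 74 of 2312, so its fit rests on few untreated cells.

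Nfkbid, Nfkb1 and Atf3, which fell in the CD4 conventional T-like sum, passed in none of its clusters tested. Among the CD4 conventional T-like clusters, with all libraries summed, Nfkbid ranged between 55.4 CPM in cluster 0 and 337 CPM in cluster 4. Cluster 0 held 1097 of 3249 and 1018 of 2891 cells of the class in the combination libraries, 506 of 2870 in the S. chamaejasme library and 119 of 1511 and 142 of 2312 in the untreated libraries. Cluster 4 held 226 of 3249 and 191 of 2891 in the combination libraries, 688 of 2870 in the S. chamaejasme library and 435 of 1511 and 270 of 2312 in the untreated libraries. Taken library by library, cluster 4 had more Nfkbid than any other CD4 conventional T-like cluster with a value, at 344 and 311 CPM in the combination libraries, 300.5 CPM in the S. chamaejasme library and 375 and 372 CPM in the untreated libraries. In cluster 0 Nfkbid had 46.7 and 57.3 CPM in the combination libraries, 86.2 CPM in the S. chamaejasme library and 24.6 and 43.8 CPM in the untreated libraries. The part of this mixture in the class difference was not tested. Within cluster 0 alone the Nfkbid difference was 0.61 (adjusted p = 0.23), opposite in sign to the class. Nfkb1 had a negative difference in all 9 clusters tested and passed in 1 of them, and Nfkbia and Nr4a3 had negative differences in 8 of 9 and passed in 3 each.

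In the Treg-like cluster 6 (Penk, Tnfrsf9, Foxp3), Fos (1.40 ± 0.19), Dusp1 (0.87 ± 0.12) and Nr4a1 (0.80 ± 0.15) rose and none fell, beside 0.367% of 8712 genes (0.115% higher, 0.253% lower). In cluster 9 (Lrrc32, Gpr83) none passed (0 by edgeR, 9 at an unadjusted p under 0.05), beside 0.169% of 7102 genes (0.0141% higher, 0.155% lower). Over the 9 clusters, Fos and Dusp1 each rose in 5 and had a positive difference in 8. Dusp1 therefore rose within clusters 0, 1, 4, 6 and 7 of the combination, although it passed in none of the 3 class sums. In cluster sums of the S. chamaejasme library, set against the same untreated libraries, Zfp36 rose in 6 of 9 clusters, Fos in 5, and Dusp1 and Junb in 4 each. The largest called rises in that library were those of Fos in clusters 6 (2.10 ± 0.21) and 0 (1.70 ± 0.15) and of Nfkbid in cluster 6 (1.69 ± 0.21), beside 0.39% of 8712 genes in cluster 6 and 2.83% of 8410 genes in cluster 0. In cluster 7, Fos (1.49 ± 0.18), Dusp1 (0.82 ± 0.19) and Junb (0.67 ± 0.13) rose and Nr4a3 (-1.26 ± 0.25), Myc (-1.12 ± 0.24), Nfkb1 (-1.02 ± 0.25) and Nr4a2 (-0.76 ± 0.19) fell, beside 2.12% of 8072 genes.

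**Figure D3:**
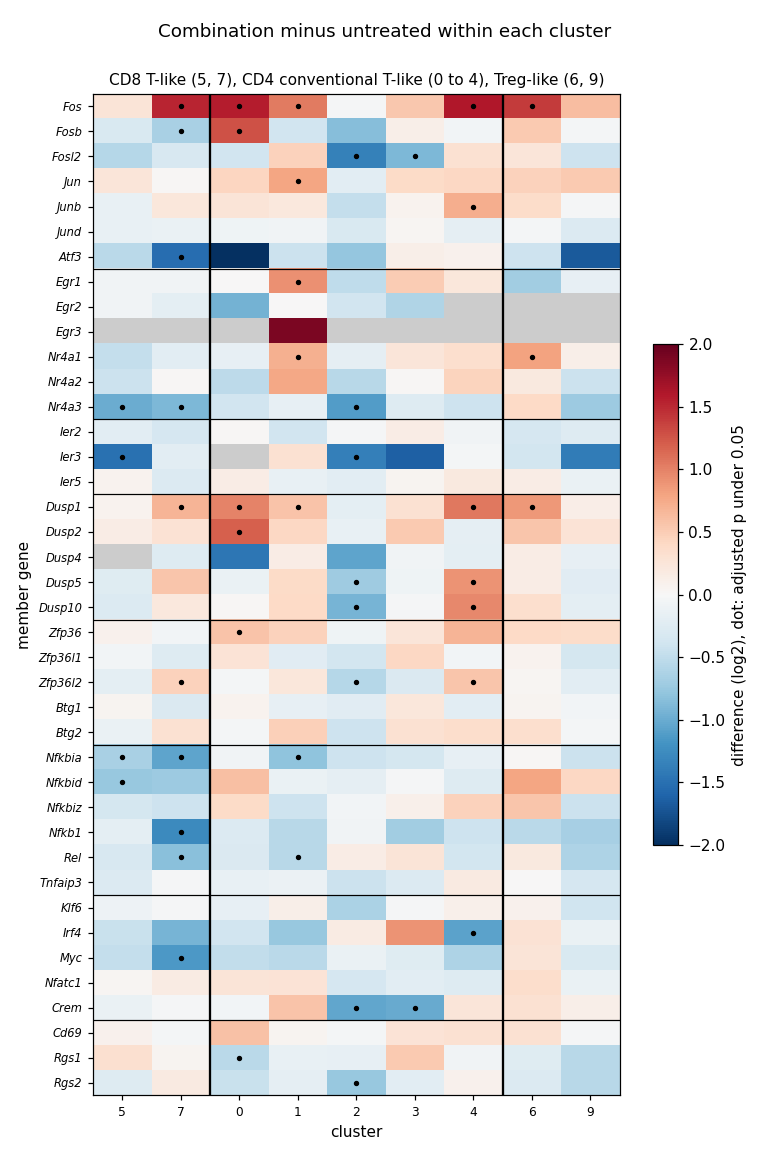
Log2 difference of each of the 40 genes (rows, grouped by block) between combination and untreated libraries. Columns are the clusters that were fitted, with the class of each. Colour runs over -2 to 2, grey cells were not tested and a dot marks an adjusted p under 0.05; the Fos row is positive in 8 of 9 clusters with 5 dots, and the Nfkb1 row is negative in all 9 with 1 dot.

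Cluster 8 was almost absent from the treated libraries, so the CD4 conventional T-like contrast was also read without it, a choice made after the clusters were seen. Then 17 of 40 genes passed between combination and untreated libraries (5 higher, 12 lower), beside 8.93% of 11378 genes (3.57% higher, 5.36% lower), and all 8 genes called with cluster 8 were among them. The added genes were Dusp2 (0.62), Zfp36 (0.55), Dusp1 (0.44) and Dusp10 (0.43), which rose, and Dusp4 (-1.42), Rgs1 (-1.32), Fosb (-0.92), Zfp36l1 (-0.72) and Nfatc1 (-0.42), which fell.

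Between the lineages, with all 5 libraries in a fit that kept the library as a block, Treg-like cells carried more Dusp4, Rel, Nfkb1 and Nr4a2 and less Jun and Fos than CD4 conventional T-like cells. The CPM of this comparison are scaled across all 15 class sums together, and so differ from those given for each class above. In all, 25 of 39 genes passed (14 higher, 11 lower), beside 40.4% of 9700 genes (21.1% higher, 19.3% lower). Dusp4 ranged over 140.0 to 321 CPM in Treg-like libraries and 17.5 to 63.5 CPM in CD4 conventional T-like libraries, a difference of 2.82 ± 0.20 (adjusted p = 2.6e-09). Rel ranged over 390.5 to 709 CPM in Treg-like and 129 to 219.8 CPM in CD4 conventional T-like libraries, a difference of 1.63 ± 0.14 (adjusted p = 2.22e-08). Nfkb1 ranged over 112 to 198 CPM in Treg-like and 52.2 to 85.5 CPM in CD4 conventional T-like libraries (1.29 ± 0.08, adjusted p = 5.14e-10). None of these 3 genes overlapped between the classes. Zfp36l1, an mRNA decay factor, had 1331 to 2572 CPM in Treg-like and 696 to 1157 CPM in CD4 conventional T-like libraries (1.02 ± 0.12, adjusted p = 1.68e-06), also without overlap. Rgs2, an inhibitor of G protein signalling, had 289 to 419 CPM in Treg-like and 136 to 238 CPM in CD4 conventional T-like libraries. Nr4a2 had 84.3 to 169 CPM in Treg-like and 46.1 to 77.3 CPM in CD4 conventional T-like libraries. On the lower side, Jun had 361 to 595 CPM in Treg-like and 831 to 1098 CPM in CD4 conventional T-like libraries (-1.08 ± 0.08, adjusted p = 8.88e-09). Fos had 289.5 to 921 CPM in Treg-like and 672 to 1314 CPM in CD4 conventional T-like libraries, ranges that overlap while the difference within libraries was -0.90 ± 0.09 (adjusted p = 3.33e-07).

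CD8 T-like cells differed from CD4 conventional T-like cells in 26 of 39 genes (5 higher, 21 lower), beside 29.1% of 9700 genes (14% higher, 15.1% lower). Ier3 had 25.4 to 53.9 CPM in CD8 T-like and 4.24 to 11.2 CPM in CD4 conventional T-like libraries, a difference of 2.08 ± 0.15 (adjusted p = 5.19e-09). In CD8 T-like libraries Nr4a2 had 177 to 306 CPM, against 46.1 to 77.3 CPM in CD4 conventional T-like libraries, a difference of 1.79 ± 0.14 (adjusted p = 1e-08). Both genes were higher in CD8 T-like cells of every library. Dusp2 (0.73 ± 0.12), Myc (0.71 ± 0.11) and Zfp36l2 (0.19 ± 0.06) were the other genes that were higher. Among the 21 lower genes, Dusp10, a phosphatase of p38 and JNK, had 198 to 333 CPM in CD8 T-like and 634 to 744 CPM in CD4 conventional T-like libraries (-1.28 ± 0.09, adjusted p = 2.99e-09). Rgs2 (-0.99 ± 0.11), Atf3 (-0.99 ± 0.23), Dusp4 (-0.71 ± 0.26), Nr4a1 (-0.63 ± 0.13), Jun (-0.62 ± 0.08), Nfkb1 (-0.60 ± 0.09), Junb (-0.55 ± 0.07) and Nr4a3 (-0.50 ± 0.15) followed. Members of 1 family thus took opposite sides: in CD8 T-like cells Nr4a2 was higher and Nr4a1 and Nr4a3 were lower than in CD4 conventional T-like cells.

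**Figure D4:**
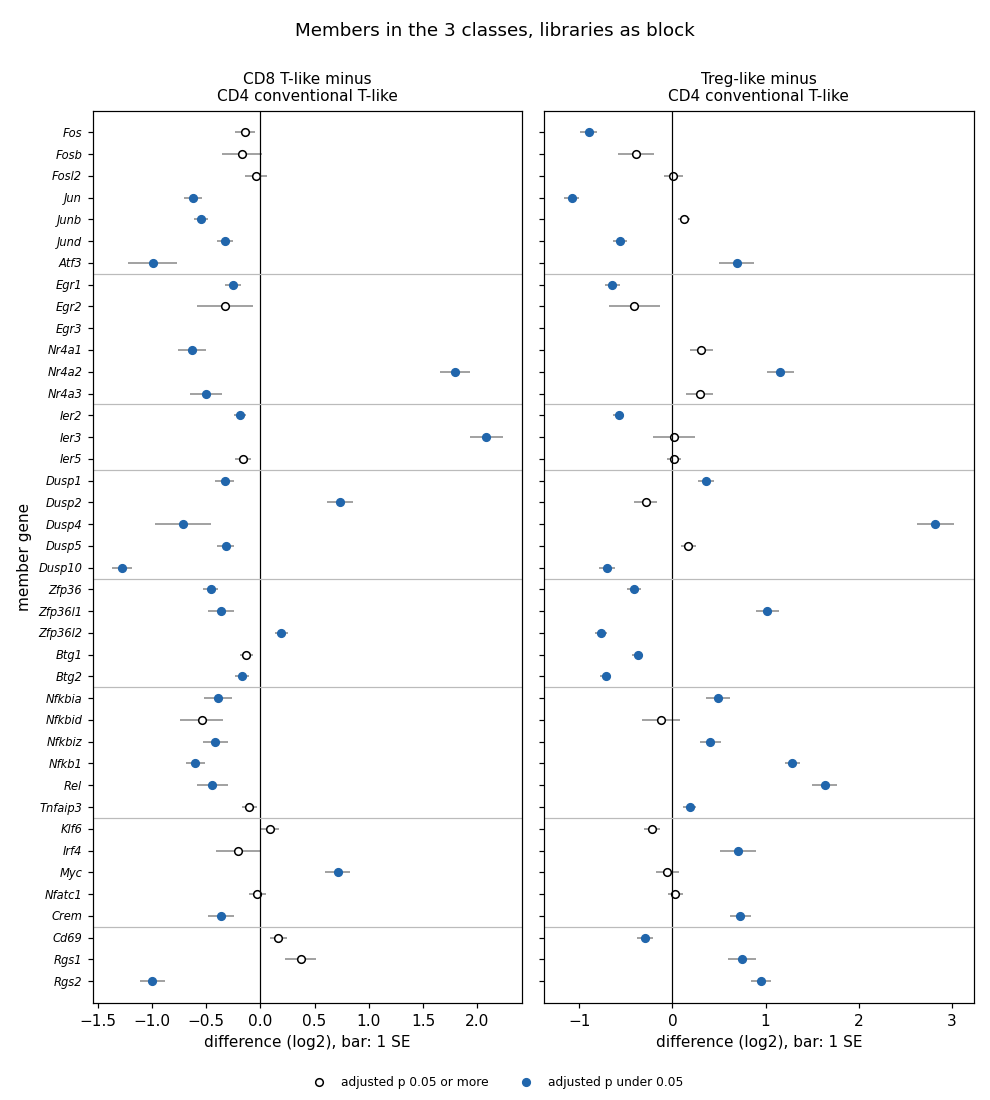
Log2 difference of each of the 40 genes (rows) in CD8 T-like and in Treg-like cells against CD4 conventional T-like cells of the same 5 libraries, with bars of 1 SE. Filled points have an adjusted p under 0.05; Dusp4 in Treg-like cells is the point farthest to the right, at 2.82, and Ier3 and Nr4a2 lead the CD8 T-like points.

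Cells whose TCR was shared with another cell of the class and library (expanded clones) were compared with cells whose TCR was seen in 1 cell, within the 5 libraries. Expanded CD8 T-like clones made up 39 and 90 cells in the combination libraries, 299 in the S. chamaejasme library and 94 and 75 in the untreated libraries, and expanded CD4 conventional T-like clones 180 and 144 cells in the combination libraries, 398 in the S. chamaejasme library and 173 and 142 in the untreated libraries. In the CD8 class 27 genes passed (23 higher, 4 lower in expanded clones), beside 19.6% of 6412 genes (10.7% higher, 8.83% lower), and in the CD4 class also 27 (23 higher, 4 lower), beside 28.0% of 8181 genes (15.5% higher, 12.5% lower). Rgs1 in expanded CD8 T-like clones had 1467 and 1566 CPM in the combination libraries, 2332 CPM in the S. chamaejasme library and 1279 and 1607 CPM in the untreated libraries. CD8 T-like cells with a TCR seen in 1 cell had 485 and 478 CPM in the combination libraries, 880.5 CPM in the S. chamaejasme library and 678 and 520.3 CPM in the untreated libraries. Rgs1 was higher in expanded clones in 5 of 5 libraries, and the difference was 1.46 ± 0.10 (adjusted p = 1.17e-10). The CD4 conventional T-like difference of Rgs1 was 1.61 ± 0.11 (adjusted p = 7.9e-09). Dusp4 differed by 1.53 ± 0.32 (adjusted p = 0.000975) in the CD8 class (higher in 4 of 5 libraries) and by 2.11 ± 0.13 (adjusted p = 4.19e-09) in the CD4 class.

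Dusp10 went the other way. In expanded CD8 T-like clones it had 84.3 and 61.4 CPM in the combination libraries, 93.0 CPM in the S. chamaejasme library and 79.5 and 91.5 CPM in the untreated libraries. CD8 T-like cells with a TCR seen in 1 cell had 344 and 379 CPM in the combination libraries, 297 CPM in the S. chamaejasme library and 312 and 361 CPM in the untreated libraries. Dusp10 was higher in expanded clones in 0 of 5 libraries, with a difference of -2.01 ± 0.13 (adjusted p = 2.71e-11), and in CD4 conventional T-like cells the difference was -1.21 ± 0.12 (adjusted p = 4.67e-07). Myc was also lower in expanded clones, by differences of -1.06 ± 0.16 (adjusted p = 1.44e-05) in the CD8 and -1.21 ± 0.17 (adjusted p = 2.92e-05) in the CD4 class. Fos (-0.60 ± 0.16) and Ier2 (-0.45 ± 0.09) completed the lower genes in CD8 T-like cells. Dusp2 (-0.73 ± 0.12) and Ier2 (-0.64 ± 0.11) completed those in CD4 conventional T-like cells. In the CD8 class Fos was higher in expanded clones in 1 of 5 libraries, combination replicate 1 (1231 against 1034 CPM). It had 753 against 1103 CPM in combination replicate 2 and 828 against 1022 CPM in the S. chamaejasme library. The untreated libraries had 341 against 666 CPM and 205 against 776 CPM. Fosb was higher in expanded clones of both classes, by 0.95 ± 0.16 in the CD8 and 1.18 ± 0.11 in the CD4 class, while Fos in the CD4 class differed by 0.02 ± 0.09 (adjusted p = 0.88). Atf3 (1.51 ± 0.16), Nfatc1 (1.27 ± 0.08), Zfp36l1 (1.21 ± 0.07), Nfkbiz (1.08 ± 0.08) and Irf4 (1.05 ± 0.15) were among the higher genes of expanded CD4 conventional T-like clones, and Dusp5 (1.07 ± 0.10), Nr4a2 (0.92 ± 0.13), Tnfaip3 (0.90 ± 0.08) and Nr4a3 (0.88 ± 0.14) among those of expanded CD8 T-like clones.

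Nearly all expanded CD8 T-like cells belonged to cluster 7 (38 of 39 and 88 of 90 in the combination libraries, 298 of 299 in the S. chamaejasme library, 94 of 94 and 75 of 75 in the untreated libraries), and within that cluster only Cd69 (0.33 ± 0.07, adjusted p = 0.0287) and Nfkbia (0.29 ± 0.06, adjusted p = 0.0279) passed, both higher in expanded clones, beside 0.46% of 4349 genes (0.368% higher, 0.092% lower). Cluster 4 held 55 of 180 and 43 of 144 expanded CD4 conventional T-like cells in the combination libraries, 254 of 398 in the S. chamaejasme library and 129 of 173 and 53 of 142 in the untreated libraries. Within it, Jun (0.33 ± 0.06, adjusted p = 0.0244) and Zfp36l1 (0.38 ± 0.06, adjusted p = 0.00497) passed, beside 0.33% of 4549 genes (0.22% higher, 0.11% lower). The whole-class differences between clone kinds were thus accompanied by a different make-up of clusters, and the called differences inside a cluster ranged between 0.29 and 0.38. Among cells with a TCR seen in 1 cell alone, the combination still differed from untreated libraries in 5 genes of the CD8 class, beside 1.78% of 8017 genes (0.399% higher, 1.38% lower), and in 9 genes of the CD4 class, beside 5.62% of 10632 genes (1.89% higher, 3.72% lower). The 5 CD8 genes were Nr4a3 (-1.19), Fosb (-0.94), Nfkbid (-0.83) and Nfkbia (-0.72), which fell, and Fos (0.57), which rose. The S. chamaejasme library had 0 genes past edgeR's test there in the CD8 class (13 at an unadjusted p under 0.05), beside 0.212% of 8017 genes, and 5 in the CD4 class, beside 2.69% of 10632 genes.

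**Figure D5:**
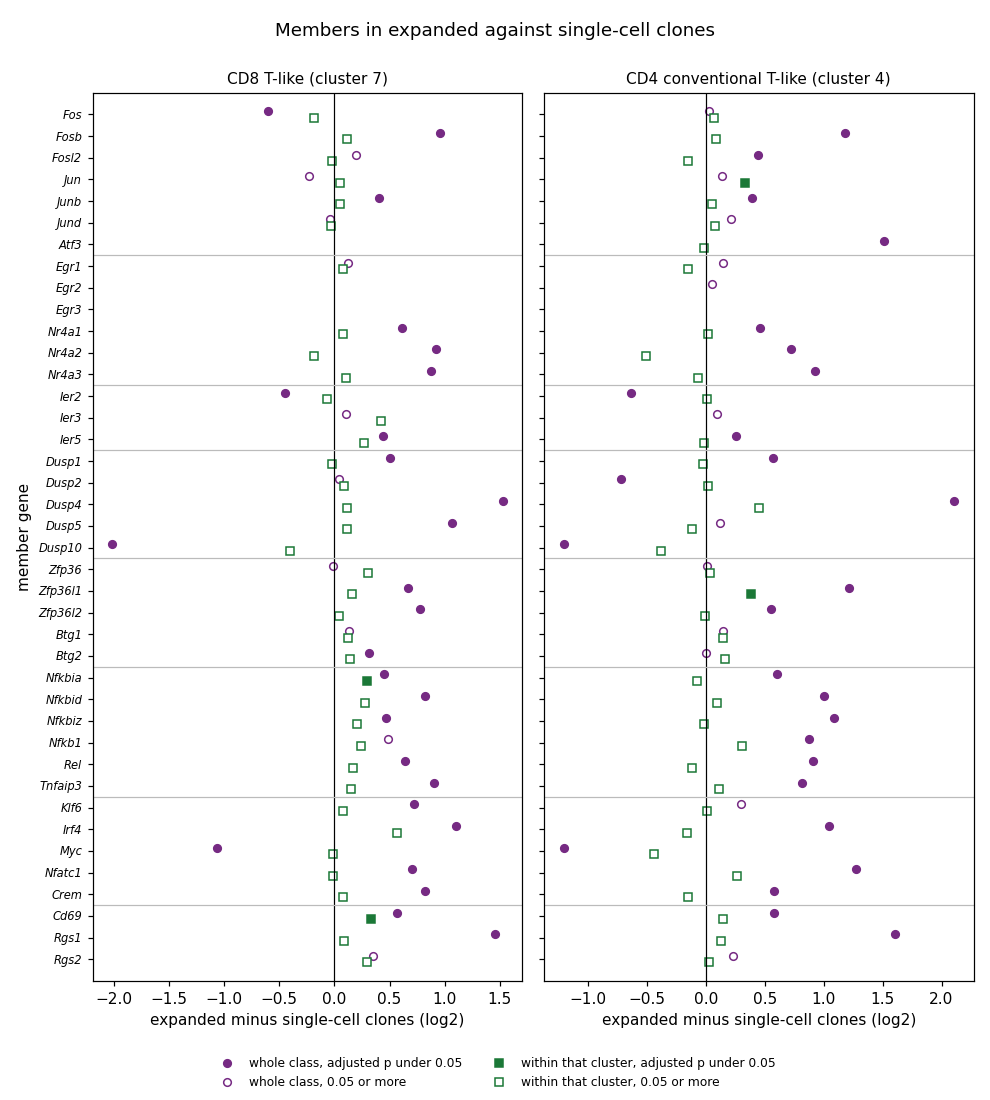
Log2 difference of each of the 40 genes (rows) between expanded clones and cells with a TCR seen in 1 cell, for CD8 T-like and CD4 conventional T-like cells. Purple circles are the whole class and green squares cluster 7 (CD8 T-like) or cluster 4 (CD4 conventional T-like) alone, filled where the adjusted p is under 0.05; Rgs1 and Dusp4 circles lie far to the right and Dusp10 and Myc circles to the left, while most squares lie near 0.

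Across single cells of a library, the 40 genes varied together only weakly. The median over 780 gene pairs of Pearson's r (log-normalised counts, median of the 5 libraries) was 0.0701 in CD8 T-like, 0.0764 in CD4 conventional T-like and 0.0492 in Treg-like cells, and 26, 12 and 17 pairs reached 0.3. Cells of a library share its handling, and r also follows the depth of each cell, so the values are descriptions. The closest pairs were Zfp36l2 with Tnfaip3 and Junb with Dusp1 in CD8 T-like cells (both 0.44), Junb with Tnfaip3 in CD4 conventional T-like cells (0.38) and Junb with Dusp1 in Treg-like cells (0.44). Dusp10 and Rgs1, which took opposite sides between expanded clones and other cells, had the lowest r in CD8 T-like (-0.30) and CD4 conventional T-like cells (-0.17), and Jun and Crem in Treg-like cells (-0.19).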

How the data were processed

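Raw UMI counts of 5′ chemistry libraries (per the labels' protocols) were made by the authors with Cell Ranger 3.1.0 and STAR on mm10, per the submitters' processing notes, and deposited without normalization. The deposited TCR contigs carry counts of reads and UMIs, and productive TRA and TRB pairs gave clonotypes. STAR's version and the annotation release: not given in the sources used here. Each RNA library shared between 14 and 54 barcodes with any other RNA library.

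A cell needed 300 genes and no more than 10% mitochondrial UMIs (21549 cells). Scrublet's automatic threshold marked 17 cells, so top-scoring cells were dropped at a rate of 0.8% per 1000 cells (799 cells), with cells holding 2 or more productive TRB chains (618), 1310 in all. The remaining 20239 cells were clustered with scanpy 1.11.5 and leidenalg 0.10.2 (2000 variable genes without the 40, 30 components, 15 neighbours, resolution 1, seed 0), giving 14 clusters named from marker lists. UMI counts were summed per library and class and tested with edgeR 4.0.16 in R 4.3.3 (quasi-likelihood, TMM, filterByExpr, Benjamini-Hochberg over all genes, threshold 0.05, 2 residual degrees of freedom). Within-cluster fits needed 30 cells per library and clone fits 20. DESeq2 1.42.0, RLE scaling, other cell filters and gates, no filter on low counts, and leaving out each library were alternatives. Scripts were tested on simulated counts. Counting error is smallest in the CD4 class (5488807 to 16391626 UMIs a sum) and largest in the Treg-like class (646993 to 3794360 UMIs).

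The 40 genes and all lists were chosen with earlier results of these data known. A gene is given in every library where it passed between combination and untreated libraries in at least 1 class or where its change differed between classes; others named were chosen after their values were seen. Class calls of clusters follow rules set with the clusters in view. Promoters come from RefSeq (GRCm38.p6), and 28 of 40 genes had an entry.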

Additional observations from a re-analysis of the deposited data

Results flagged for a closer look

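The difference between combination and untreated libraries depended on the lineage for Nfkbid (adjusted p = 0.0148) and Nr4a1 (adjusted p = 0.0296), by the interaction test of edgeR's quasi-likelihood fit over 15 class sums with the library as a block. Over the alternatives these adjusted p-values ranged between 0.00196 and 0.209 for Nfkbid and between 0.000659 and 0.468 for Nr4a1.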

How the results depend on the processing

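Of the 37 single-gene calls in the 6 treatment contrasts, all kept direction and call under 1000 UMIs and 5% mitochondrial UMIs, with the 40 genes kept among the variable genes, without a filter on low counts and without either untreated library. DESeq2 lost 4 calls and gave no adjusted p for 4 more, RLE size factors 1, no doublet removal 5, the gate 3, the largest cluster of a class alone 20, and leaving out either combination library 13; the cause was not tested. In the largest cluster alone 2 further calls were lost with a reversed sign. These were Nfkbid in CD4 conventional T-like cells of the combination (0.61) and Rgs1 in the S. chamaejasme CD8 T-like sum (-0.13). Without a filter on low counts the combination counts were 17 in CD8 T-like, 18 in CD4 conventional T-like and 3 in Treg-like cells, and the S. chamaejasme counts 14, 10 and 12.

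For the combination, the CD8 T-like count was 6 with DESeq2, 4 in the largest cluster and 5 in single-cell clones, the CD4 count 17 without cluster 8, and the Treg-like count 3 with the gate, 3 in the largest cluster and 2 with the 40 genes kept. For S. chamaejasme, the CD8 T-like count was 4 with the gate, 1 in the largest cluster (none of the 7 as reported), 4 without doublet removal and 0 in single-cell clones (13 at an unadjusted p under 0.05 by edgeR), and the CD4 count 10 in the largest cluster. The interaction count was 6 with the gate, and the clone counts were 2 within 1 cluster in each class. Leaving out each library in turn gave combination counts of 5 to 24 (CD8), 5 to 24 (CD4) and 0 to 5 (Treg), S. chamaejasme counts of 4 to 26, 5 to 23 and 7 to 10 in that order of classes, interaction counts of 0 to 15, clone counts of 25 to 28 (CD8) and 26 to 31 (CD4), and lineage counts of 18 to 27 (CD8 T-like) and 23 to 29 (Treg-like). No paired analysis was possible because the labels number no replicates, so the replicate numbers used here follow accession order and tie no library of one group to a library of another. The share of all genes called in the fits without a library is not given, so their counts do not show a change particular to the 40 genes. At this depth Egr3 could not be tested in CD8 T-like and Treg-like cells.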
